A study of Homo sapiens with 12 samples.

Results

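Carnitine carries fatty acids into mitochondria, and BBOX1, the enzyme that makes it from gamma-butyrobetaine, was described here with 9 other genes of carnitine synthesis, uptake and the acylcarnitine shuttle. The 10 genes were taken by name from the deposited table of 58735 genes. They are BBOX1, TMLHE, ALDH9A1, SLC22A5, SLC25A20, CPT1A, CPT1B, CPT2, CRAT and CROT, and each name occurred once. The cells were 786-O, a long-established human cell line from clear cell renal carcinoma, a kidney cancer known for its stored lipid. They had been infected with lentivirus made in HEK293T cells, either to re-express BBOX1 or with an empty vector, and then selected with puromycin or neomycin depending on the vector. Polyadenylated RNA was sequenced from 4 groups of 3 libraries: BBOX1 xenografts and empty-vector xenografts, grown in NOD SCID gamma (NSG) mice aged 6 to 8 weeks on a regular diet, and BBOX1 cells and empty-vector cells in culture. The labels give no promoter for the vector, no clone and no source of the replicates, so the spread on which every p-value rests is that between these libraries and may be technical. The title of the series places BBOX1 in a question on TBK1 and mTORC1 signalling. NSG mice lack mature lymphocytes but supply stroma and vessels.

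Carnitine synthesis begins with trimethyllysine released from proteins. TMLHE hydroxylates it in mitochondria, and ALDH9A1 oxidises a later aldehyde intermediate to gamma-butyrobetaine in the cytosol. BBOX1, a dioxygenase that needs iron, ascorbate and 2-oxoglutarate, completes the pathway, chiefly in kidney and liver. Cells also take carnitine up through SLC22A5 (OCTN2). CPT1 on the outer mitochondrial membrane joins long-chain acyl groups to carnitine, SLC25A20 exchanges acylcarnitine for carnitine across the inner membrane, and CPT2 returns the acyl group to coenzyme A, while CRAT and CROT act on acetyl and medium-chain groups. Malonyl-CoA inhibits CPT1.

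The promoters of the genes on which the results turn are shown for BBOX1, which had no counts in empty-vector cells, and for CPT1A, SLC22A5 and CROT, which of the 8 described genes found in the promoter table rose most in BBOX1 xenografts over BBOX1 cells. Each window is from RefSeq (GRCh38.p14) and spans 300 bases across an annotated start, 5′ to 3′ on the gene's strand, with every CG dinucleotide in capitals.
BBOX1 (chr11:27040565-27040864, plus strand): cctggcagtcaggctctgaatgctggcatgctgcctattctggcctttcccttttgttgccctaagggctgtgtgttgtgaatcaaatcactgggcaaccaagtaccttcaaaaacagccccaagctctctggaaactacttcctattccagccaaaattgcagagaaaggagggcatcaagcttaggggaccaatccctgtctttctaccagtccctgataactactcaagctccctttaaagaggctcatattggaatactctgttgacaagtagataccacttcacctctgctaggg
CPT1A (chr11:68844228-68844527, minus strand): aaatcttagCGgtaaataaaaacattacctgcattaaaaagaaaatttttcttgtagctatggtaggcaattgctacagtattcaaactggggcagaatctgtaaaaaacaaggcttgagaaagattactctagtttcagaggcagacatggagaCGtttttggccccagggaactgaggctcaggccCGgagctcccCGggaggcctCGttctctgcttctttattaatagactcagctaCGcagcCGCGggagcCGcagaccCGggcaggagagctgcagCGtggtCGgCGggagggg
SLC22A5 (chr5:132369460-132369759, plus strand): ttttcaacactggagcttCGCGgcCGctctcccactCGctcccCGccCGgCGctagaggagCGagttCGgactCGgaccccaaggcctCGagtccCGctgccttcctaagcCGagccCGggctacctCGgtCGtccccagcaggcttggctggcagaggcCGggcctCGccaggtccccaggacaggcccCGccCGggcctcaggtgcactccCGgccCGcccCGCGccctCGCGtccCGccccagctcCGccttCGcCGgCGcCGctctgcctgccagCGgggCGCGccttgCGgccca
CROT (chr7:87345414-87345713, plus strand): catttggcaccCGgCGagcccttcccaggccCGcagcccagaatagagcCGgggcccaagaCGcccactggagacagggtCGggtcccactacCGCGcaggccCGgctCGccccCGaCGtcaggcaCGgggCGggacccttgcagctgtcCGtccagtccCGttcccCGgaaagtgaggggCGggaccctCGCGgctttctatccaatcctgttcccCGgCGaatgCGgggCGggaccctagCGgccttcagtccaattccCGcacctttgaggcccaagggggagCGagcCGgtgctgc
The BBOX1 window above held 0 CG dinucleotides and that of its other annotated start 1, against a median of 14 over 35116 windows of the same length, of which 11.0% held at most 1. CPT1A held 13, SLC22A5 36 and CROT 28. Of the 10 genes, 8 had an entry in this table; CPT1B and CRAT had none. The core of the hypoxia response element, ACGTG on either strand, occurred in 21.4% of all windows and in those of 0 of the 8 genes. The direct repeat bound by PPAR factors, a pair of AGGTCA half-sites with 1 base between them on either strand, occurred in 0.0228% of all windows and in 0 of the 8. A letter match or its absence describes these windows and not the binding of a factor.

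Total counts were 13729031 to 16159837 in BBOX1 xenografts, 15171681 to 18937852 in empty-vector xenografts, 15627686 to 26758712 in BBOX1 cells and 16317539 to 22067530 in empty-vector cells. BBOX1 xenograft replicate 1 differed more from its group than any other library did: the chi-square of their counts per degree of freedom was 41.0 and 40.9 against replicates 2 and 3, which had 8.61 between them. Reads of mitochondrially encoded genes were 7.96%, 12.6% and 13.7% of counts in BBOX1 xenografts, 6.78% to 8.99% in empty-vector xenografts and 3.22% to 3.54% in cultured cells; their part in the results below was not tested. Of 8 renal tumour and tubule markers all were detected in every group, and PAX8 averaged 658 and 694 CPM in BBOX1 and empty-vector xenografts and 267 and 273 CPM in BBOX1 and empty-vector cells. With BBOX1, 1 of the 8 was called lower in each setting and 0 higher, where 3.63% of all tested genes were lower in xenografts and 7.86% in culture. CA9 averaged 5.06 CPM in BBOX1 xenografts, against 40.0 CPM in empty-vector xenografts (log2 -2.94, edgeR adjusted p = 0.00177). CDH6 averaged 451 CPM in BBOX1 cells, against 558 CPM in empty-vector cells (log2 -0.31, edgeR adjusted p = 1.86e-11). CPM is the gene's count scaled to the size of its library, with TMM factors over the 12 libraries.

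BBOX1 (ENSG00000129151, GRCh38 chromosome 11, 27040725 to 27127809, plus strand) followed the labels in all 12 libraries. It had 18529, 20016 and 29665 counts in BBOX1 xenografts, against 10, 6 and 14 in empty-vector xenografts. In culture it had 29085, 20202 and 16953 counts in BBOX1 cells, against 0 in each of the 3 empty-vector libraries. The difference that the vector was made to produce was 11.29 on the log2 scale in xenografts (SE 0.31, n = 3 per group). In culture BBOX1 was at least 20165-fold higher in BBOX1 cells, where the 0 counts of empty-vector cells were replaced by 3 counts over the group. Length-normalised (RPKM, CPM per kilobase of annotated exon), it was the 40th highest of all genes in BBOX1 xenografts and the 48th in BBOX1 cells, with the caution that the length of the transcript made from the vector is not given.

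BBOX1 itself was also measured against growth setting. It stood at 1263, 1300 and 1809 CPM in BBOX1 xenografts, against 1097, 1116 and 1093 CPM in BBOX1 cells, so that all xenograft libraries were above all culture libraries. The fitted rise was 0.51 on the log2 scale, or 1.42-fold (SE 0.15, edgeR adjusted p = 0.0135). With library sizes scaled over the 12 libraries, as for CPM, the ratio of summed counts was 1.33. Without any 1 of the 3 BBOX1 cell libraries the fitted log2 fold change stayed at 0.47 to 0.49 but was not called (adjusted p 0.0514 to 0.0609), and without BBOX1 xenograft replicate 3 it was 0.30 (adjusted p = 0.0207). Its coefficient of variation was 20.9% in BBOX1 xenografts and 1.08% in BBOX1 cells. In the empty-vector groups the 30 counts over xenografts, against 0 over cells, made BBOX1 at least 10.9-fold higher in xenografts, at a level of 0.326 to 0.837 CPM. The source of these few counts was not tested, so they need not be expression of the gene in 786-O cells. The antisense gene BBOX1-AS1 overlaps the BBOX1 locus (27047186 to 27220113, minus strand) but shares 0 exon bases with it in GENCODE 29. BBOX1-AS1 had 4 counts over BBOX1 xenografts, 5 over empty-vector xenografts, 0 over BBOX1 cells and 2 over empty-vector cells.

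**Figure D1:**
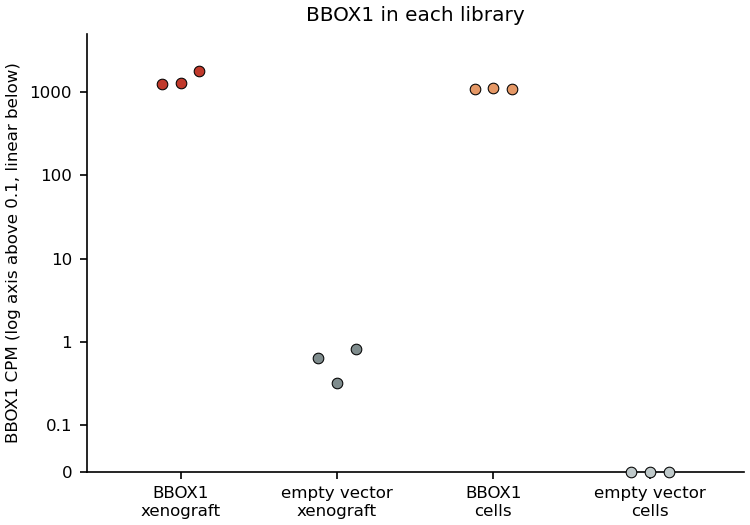
BBOX1 level in CPM for each library (points) by group, on an axis that is logarithmic above 0.1 CPM and linear below. The 3 BBOX1 xenografts sit between 1263 and 1809 CPM and the 3 BBOX1 cell libraries between 1093 and 1116, while empty-vector xenografts are below 1 CPM and empty-vector cells at 0.

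The first comparison asked how the other 9 genes stood with BBOX1 restored. In culture 0 of the 9 passed an adjusted p of 0.05 in edgeR, and 0 in DESeq2, where edgeR called 16.4% of all 14960 tested genes, 8.53% higher and 7.86% lower; 1 of the 9 had an unadjusted p under 0.05, against 28.1% of all tested genes. In a fit of all 12 libraries the culture contrast called 1 gene higher and 1 lower over all genes. Their median log2 fold change was 0.05, against -0.00080 over all tested genes. In xenografts CPT1B and CROT rose, 0 fell and 7 did not pass in edgeR. DESeq2 also called 2 of the 9, but it called more of all genes, both higher and lower, than edgeR did. Of 16126 tested genes edgeR called 5.54%, 1.91% higher and 3.63% lower. That background moved with single libraries, between 22 genes (without empty-vector replicate 2) and 1854 genes (without BBOX1 replicate 1) called higher, against 308 with all. The median of the 9 was 0.09, against 0.02 over all tested genes.

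In the synthesis branch neither TMLHE nor ALDH9A1 passed in either setting. TMLHE (chromosome X, 155490115 to 155669944, minus strand) had 11.4, 8.64 and 9.27 CPM in BBOX1 xenografts, against 8.92, 9.17 and 10.3 CPM in empty-vector xenografts. The groups overlapped, with a log2 fold change of 0.09 and an interval of 2 SE from -0.26 to 0.44. In culture TMLHE had 7.05, 8.50 and 9.54 CPM in BBOX1 cells, against 8.67, 7.13 and 7.64 CPM in empty-vector cells (log2 0.08, interval -0.18 to 0.34). ALDH9A1 (chromosome 1, 165662216 to 165698863, minus strand) had 58.4, 37.9 and 52.5 CPM in BBOX1 xenografts, against 56.5, 62.0 and 65.3 CPM in empty-vector xenografts. Its replicate 2 was the lowest of the 12 libraries, and the log2 fold change of -0.26 (interval -0.56 to 0.04) was not called. In culture it had 48.8 to 55.2 CPM in BBOX1 cells and 49.5 to 52.8 CPM in empty-vector cells, with the narrow interval of -0.11 to 0.10.

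The carnitine transporter SLC22A5 (chromosome 5, 132369752 to 132395614, plus strand) had 48.2, 42.2 and 40.2 CPM in BBOX1 xenografts, against 38.7, 36.5 and 33.8 CPM in empty-vector xenografts. All BBOX1 xenografts were above all empty-vector xenografts, but the log2 fold change of 0.31 (SE 0.12) did not pass (edgeR adjusted p = 0.153; in a fit of all 12 libraries 0.0431). In culture SLC22A5 had 21.9, 24.6 and 23.2 CPM in BBOX1 cells and 22.4, 19.7 and 24.4 CPM in empty-vector cells, which overlapped.

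CPT1A (ENSG00000110090, chromosome 11, 68754620 to 68844410, minus strand) encodes the CPT1 form of liver and most other tissues. It had 55.9, 43.6 and 53.9 CPM in BBOX1 xenografts, against 38.0, 35.2 and 53.9 CPM in empty-vector xenografts. Replicate 3 of the empty-vector group reached the level of the BBOX1 group, and the log2 fold change of 0.32 (SE 0.16) did not pass (edgeR adjusted p = 0.243). In culture CPT1A had 7.66, 6.57 and 6.64 CPM in BBOX1 cells, against 5.80, 5.55 and 5.11 CPM in empty-vector cells. These groups did not overlap, and the log2 fold change of 0.35 (SE 0.14) had an unadjusted p of 0.0144 and an edgeR adjusted p of 0.0747, above the threshold.

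CPT1B (ENSG00000205560, chromosome 22, 50568861 to 50578465, minus strand) encodes the CPT1 form of muscle and heart. It had 6.61, 8.96 and 9.82 CPM in BBOX1 xenografts, against 5.15, 4.45 and 4.24 CPM in empty-vector xenografts. Every BBOX1 xenograft was above every empty-vector xenograft, a rise of 0.93 on the log2 scale (SE 0.23, n = 3 per group, edgeR adjusted p = 0.0433). Without BBOX1 xenograft replicate 1 the rise was 1.09 (adjusted p = 0.00363), and without any other 1 library it was no longer called (adjusted p up to 0.188). In culture CPT1B had 2.00, 1.60 and 2.64 CPM in BBOX1 cells and 2.08, 1.77 and 2.21 CPM in empty-vector cells (log2 0.02, interval -0.49 to 0.52), and CPT1B had the widest interval of the 9 genes there.

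CPT1B shares 66.4% of its exon bases with the read-through gene CHKB-CPT1B on the same strand, so its counts are uncertain. CHKB-CPT1B averaged 3.09 ± 0.93 CPM in BBOX1 xenografts and 1.76 ± 0.37 CPM in empty-vector xenografts (SD, n = 3 each), a log2 fold change of 0.87 that did not pass (edgeR adjusted p = 0.149). With the reads of CHKB-CPT1B added to CPT1B, an alternative added once the data were known, the rise in xenografts was 0.91 on the log2 scale (SE 0.22, edgeR adjusted p = 0.0417). Reads in the shared bases may be in neither deposited count, since the counting settings are not given, so this sum cannot settle the uncertainty. Of 5 striated muscle markers, the summed level was 0.779 to 3.14 CPM in BBOX1 xenografts and 0.956 to 2.17 CPM in empty-vector xenografts. TNNT3, a troponin of fast skeletal muscle, had the highest mean of the 5 in both xenograft groups. It averaged 1.90 CPM in BBOX1 xenografts and 0.80 CPM in empty-vector xenografts (log2 1.26, edgeR adjusted p = 0.247, not called) and was at 0 in all cultured libraries. ACTA1 averaged 0.125 and 0.396 CPM in BBOX1 and empty-vector xenografts, MB 0.0227 and 0.183 CPM, and MYH2 0.0864 and 0.0832 CPM. The muscle creatine kinase CKM was at 0 in BBOX1 xenografts and averaged 0.101 CPM in empty-vector xenografts. These are counts of human genes and do not measure mouse muscle. The part of muscle RNA in the CPT1B result was not tested.

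The rest of the mitochondrial shuttle did not pass with BBOX1. The translocase gene SLC25A20 (chromosome 3, 48856931 to 48898993, minus strand) had 12.5, 12.1 and 14.9 CPM in BBOX1 xenografts and 10.4, 13.0 and 16.0 CPM in empty-vector xenografts. These overlapped (log2 0.06, interval -0.31 to 0.43), as did the culture groups at 7.22 to 11.0 CPM in BBOX1 cells and 8.23 to 10.4 CPM in empty-vector cells. CPT2 (chromosome 1, 53196429 to 53214197, plus strand), which releases the acyl group inside mitochondria, had 16.0, 12.9 and 11.7 CPM in BBOX1 xenografts, against 18.8, 17.1 and 17.2 CPM in empty-vector xenografts. All BBOX1 xenografts were below all empty-vector xenografts, yet the log2 fold change of -0.34 (SE 0.16) was not called (edgeR adjusted p = 0.202). Without BBOX1 xenograft replicate 1 it was called, at -0.45 (edgeR adjusted p = 0.0408). In culture CPT2 had 11.3 to 13.6 CPM in BBOX1 cells and 12.3 to 15.0 CPM in empty-vector cells (log2 -0.10, interval -0.30 to 0.11). The antisense gene AL606760.2 covers 11.0% of the CPT2 exon bases and averaged 0.28 CPM in BBOX1 xenografts, 0.29 in empty-vector xenografts, 0.26 in BBOX1 cells and 0.23 in empty-vector cells. C1orf123, also on the other strand, shares 99 bases, 0.947%, of the CPT2 exons. It averaged 62.3, 63.1, 32.1 and 30.5 CPM in the same groups.

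CRAT and CROT are the acyltransferases for short and medium chains, and with BBOX1 restored CROT passed in xenografts. CRAT (chromosome 9, 129094810 to 129111189, minus strand), which buffers acetyl-CoA, had 117, 105 and 109 CPM in BBOX1 xenografts and 106, 118 and 116 CPM in empty-vector xenografts (log2 0.02, interval -0.20 to 0.23). In culture CRAT had 82.7, 78.4 and 81.8 CPM in BBOX1 cells and 77.8, 75.6 and 79.5 CPM in empty-vector cells, and its interval of -0.03 to 0.14 was the narrowest of the 9 genes in culture. PTPA, on the other strand, shares 75 bases, 1.97%, of the CRAT exons. It averaged 309 CPM in each xenograft group, 366 CPM in BBOX1 cells and 331 CPM in empty-vector cells. In culture PTPA was called higher with BBOX1 (log2 0.14, edgeR adjusted p = 0.00016). CROT (ENSG00000005469, chromosome 7, 87345681 to 87399795, plus strand), which prepares medium chains for export from peroxisomes, had 41.6, 38.1 and 37.1 CPM in BBOX1 xenografts, against 22.1, 27.0 and 32.2 CPM in empty-vector xenografts. All of the BBOX1 xenografts were above all empty-vector xenografts, a rise of 0.57 on the log2 scale (SE 0.14, edgeR adjusted p = 0.043). The call was lost without BBOX1 replicate 2 (adjusted p = 0.104), BBOX1 replicate 3 (0.133), empty-vector replicate 1 (0.137) or empty-vector replicate 2 (0.19), and without BBOX1 replicate 1 the rise was 0.54 (0.015). In culture CROT had 20.7, 21.7 and 19.2 CPM in BBOX1 cells and 20.7, 21.0 and 23.1 CPM in empty-vector cells, which overlapped (log2 -0.08, interval -0.24 to 0.08).

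**Figure D2:**
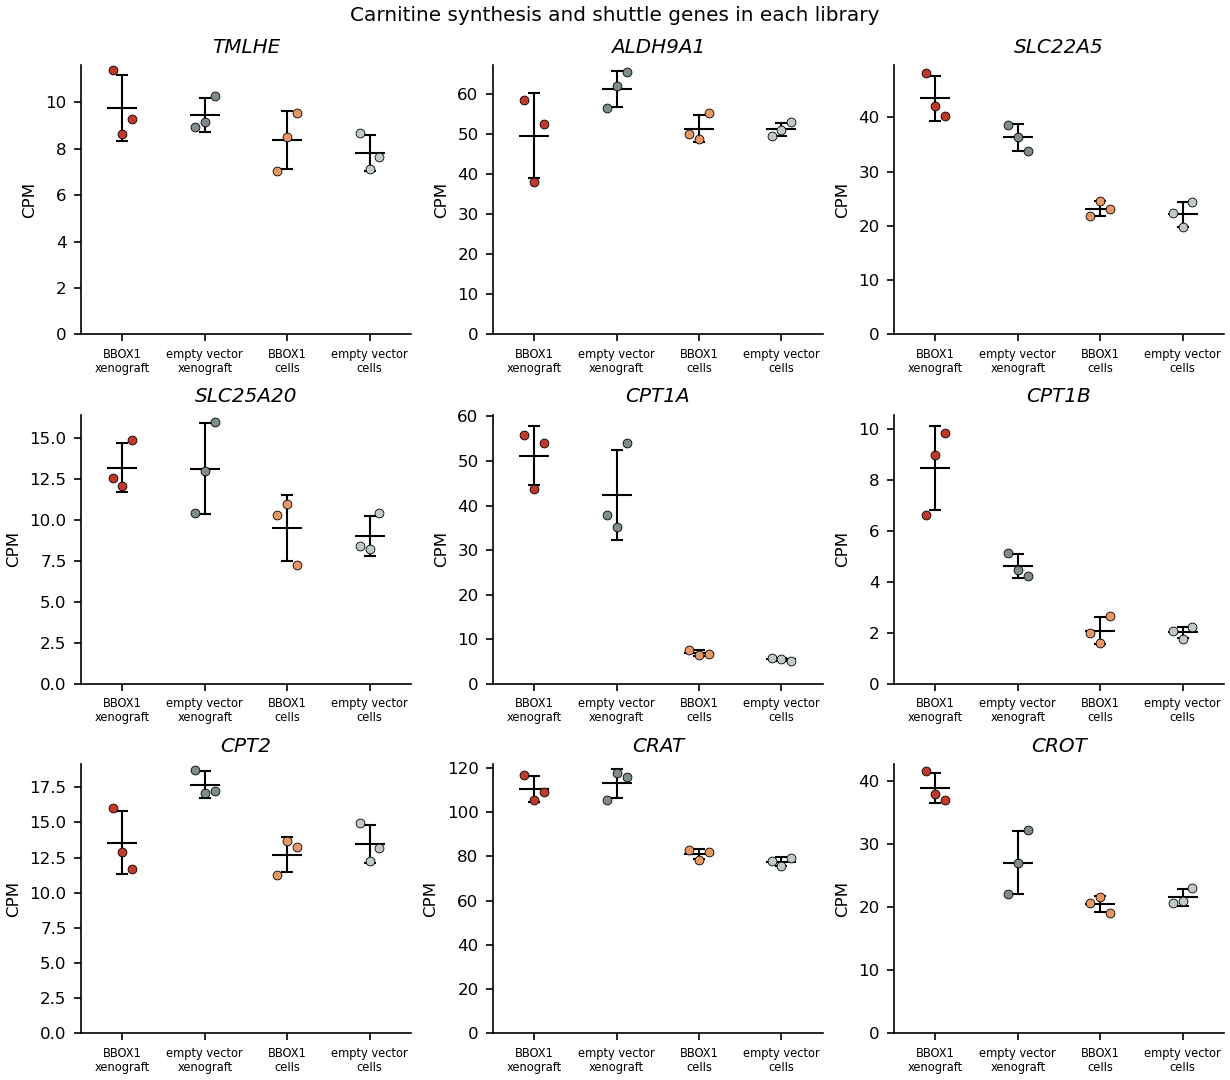
Level in CPM (vertical axes, each from 0) of the 9 genes other than BBOX1, by group; points are libraries, and the bar is the mean ± SD of 3. CPT1B and CROT in BBOX1 xenografts lie above all empty-vector xenografts, and CPT1A separates xenografts, at 35.2 CPM or more, from cultured cells, at 7.66 CPM or less.

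The difference between the BBOX1 effects in xenografts and in culture was tested in 1 fit of all 12 libraries, in which 5.19% of 16927 tested genes were called, 1.93% higher and 3.26% lower. Of the 9 genes, 1 was called. CROT had a BBOX1 effect larger in xenografts by 0.64 on the log2 scale (SE 0.16, edgeR adjusted p = 0.0334), a call lost in 8 of 12 fits that each left out 1 library (adjusted p up to 0.108): those without any 1 of the 6 culture libraries, BBOX1 xenograft replicate 3 or empty-vector xenograft replicate 2. Without BBOX1 xenograft replicate 1 it was 0.59 (edgeR adjusted p = 0.011), and 2 of the 9 genes were called. That fit called 1432 genes higher and 2750 lower over all tested genes, against 326 and 552 with all 12 libraries. For CPT1B the difference was 0.90 (SE 0.33) and did not pass (edgeR adjusted p = 0.117; 0.021 without BBOX1 xenograft replicate 1). For CPT1A it was -0.04, with an interval of -0.46 to 0.39.

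The second comparison set xenografts against culture. Most of the genes rose in tumours, CPT1A by the most: 6 of the 9 genes rose in BBOX1 xenografts and 8 of 9 in empty-vector xenografts, 0 fell in either, and TMLHE passed in neither. Over all tested genes 68.2% were called with BBOX1, 36.1% higher and 32.1% lower, and 68.6% with empty vector, 35.5% higher and 33.1% lower. The median log2 fold change of the 9 was 0.56 with BBOX1 and 0.58 with empty vector, against 0.07 and 0.04 over all tested genes. These comparisons share libraries with those of BBOX1 against empty vector, so their values are given side by side only. In bulk RNA, fewer cells of a type and less RNA per cell cannot be told apart, and whether mouse reads were removed is not given in the sources used here.

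CPT1A averaged 51.2 ± 6.58 CPM in BBOX1 xenografts, against 6.96 ± 0.607 CPM in BBOX1 cells (SD, n = 3 each), a rise of 2.97 on the log2 scale (SE 0.13, edgeR adjusted p = 5.63e-07). With empty vector it averaged 42.4 ± 10.1 CPM in xenografts, against 5.48 ± 0.351 CPM in cells, a rise of 7.98-fold (log2 SE 0.16, edgeR adjusted p = 5.98e-09). The rise with BBOX1 was 7.82-fold, and by log2 fold change CPT1A ranked 833rd of 15906 genes with BBOX1 and 794th of 15914 with empty vector. CPT1B rose by 2.14 on the log2 scale in BBOX1 xenografts over BBOX1 cells (SE 0.26, edgeR adjusted p = 9.78e-05) and by 1.23 in empty-vector xenografts over empty-vector cells (SE 0.23, edgeR adjusted p = 0.000379). With the CHKB-CPT1B reads added the values were 2.18 and 1.27.

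The balance of the CPT1 forms is given per exon length. The ratio of CPT1A to CPT1B RPKM was 3.04, 3.43 and 5.28 in BBOX1 xenografts and 4.61, 4.95 and 7.94 in empty-vector xenografts, each in ascending order. In culture it was 1.57, 2.39 and 2.56 in BBOX1 cells and 1.44, 1.75 and 1.96 in empty-vector cells. On this scale CPT1A exceeded CPT1B in all 12 libraries, and every xenograft ratio was above every culture ratio. CPT1B shares 66.4% of its exon bases with CHKB-CPT1B, and RPKM divides by its full exon length. How reads in the shared bases were counted is not given. The level of the ratios, and so whether CPT1A exceeded CPT1B, is therefore uncertain.

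The uptake gene SLC22A5 rose with both vectors. It averaged 43.5 ± 4.17 CPM in BBOX1 xenografts, against 23.2 ± 1.35 CPM in BBOX1 cells, a rise of 1.01 on the log2 scale (SE 0.10, edgeR adjusted p = 3.46e-05). With empty vector it averaged 36.3 ± 2.46 CPM in xenografts, against 22.2 ± 2.31 CPM in cells, a rise of 0.75 (SE 0.10, edgeR adjusted p = 2.23e-05). The antisense gene MIR3936HG shares 73 bases, 0.571%, of the SLC22A5 exons, and the library kit does not mark strand. MIR3936HG averaged 12.3 CPM in BBOX1 xenografts and 7.36 CPM in empty-vector xenografts, and 3.68 CPM in BBOX1 cells and 3.47 CPM in empty-vector cells. In xenografts it rose with BBOX1 by 0.79 on the log2 scale (SE 0.20, edgeR adjusted p = 0.0436).

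CRAT rose with BBOX1 by 0.55 on the log2 scale in xenografts over culture (SE 0.08, edgeR adjusted p = 0.000295), and with empty vector by 0.59 (SE 0.06, edgeR adjusted p = 3.26e-06). CROT rose by 1.02 with BBOX1 (SE 0.10, edgeR adjusted p = 2.75e-05) and by 0.37 with empty vector (SE 0.12, edgeR adjusted p = 0.0136); in the empty-vector groups the libraries overlapped, and that call was lost without empty-vector cell replicate 1 or 2 or empty-vector xenograft replicate 3 (adjusted p 0.0601 to 0.0711). SLC25A20 rose by 0.56 with BBOX1 (SE 0.18, edgeR adjusted p = 0.0218) and by 0.58 with empty vector (SE 0.16, edgeR adjusted p = 0.00649). The SLC25A20 call with BBOX1 was lost without BBOX1 cell replicate 3 or BBOX1 xenograft replicate 3 (adjusted p 0.0889 in each).

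CPT2, ALDH9A1 and TMLHE each missed the threshold in at least 1 of the comparisons by setting. CPT2 had a log2 fold change of 0.19 with BBOX1, which was not called (interval -0.10 to 0.49), and rose by 0.44 with empty vector (edgeR adjusted p = 0.00404). ALDH9A1 had 0.05 with BBOX1 (interval -0.24 to 0.33) and rose by 0.31 with empty vector (edgeR adjusted p = 0.00177). TMLHE had 0.33 with BBOX1 and 0.32 with empty vector, and passed in neither (edgeR adjusted p = 0.115 and 0.0572).

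**Figure D3:**
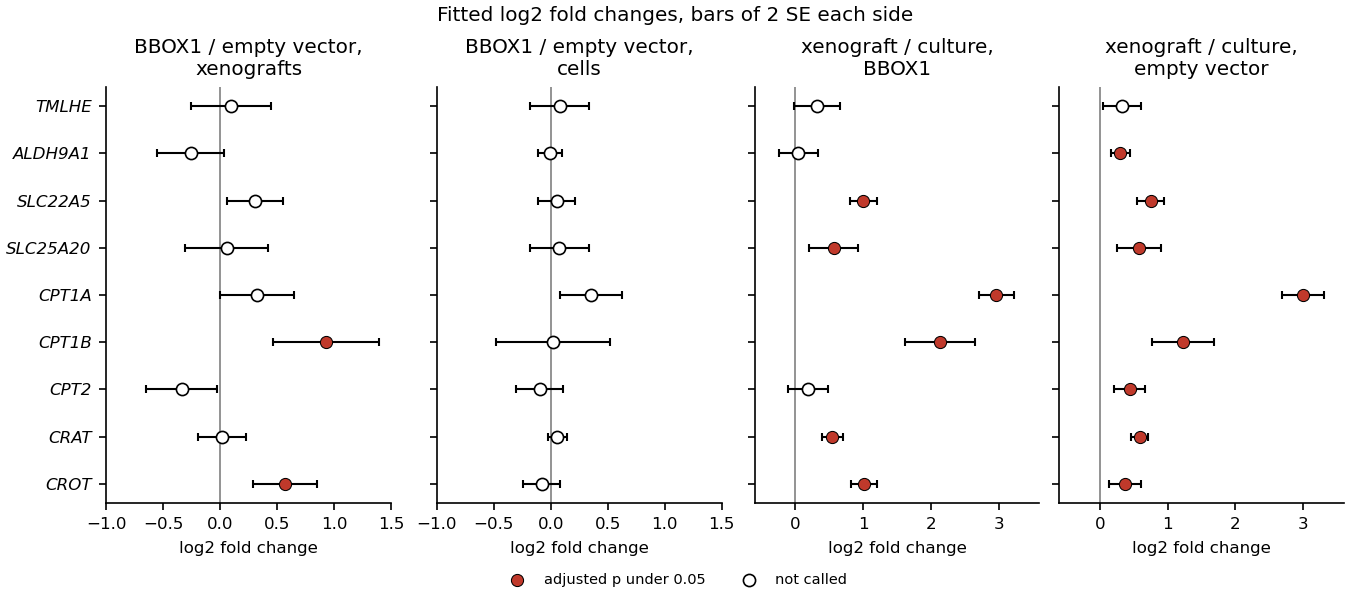
Fitted log2 fold changes (horizontal axes) of the 9 genes in the 4 pairwise comparisons, with bars of 2 SE each side; filled points have an adjusted p under 0.05. CPT1B and CROT are the filled points for BBOX1 over empty vector in xenografts, no point is filled in culture, and CPT1A lies near 3 in both comparisons of xenograft with culture.

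CRAT was the highest of the 9 genes in each group, at 27.7 to 30.7 RPKM in BBOX1 xenografts, 27.8 to 30.9 in empty-vector xenografts, 20.6 to 21.8 in BBOX1 cells and 19.9 to 20.9 in empty-vector cells. ALDH9A1 came next, at means of 15.0, 18.5, 15.5 and 15.4 RPKM in the same groups. In BBOX1 xenografts CROT (7.81 RPKM), CPT1A (7.79) and SLC25A20 (6.64) followed and overlapped between libraries, then SLC22A5 (3.40), TMLHE (2.49) and CPT1B (2.06), of which the last 2 overlapped, and CPT2 (1.30). In empty-vector xenografts SLC25A20 (6.62 RPKM), CPT1A (6.45) and CROT (5.45) overlapped, followed by SLC22A5 (2.84), TMLHE (2.41), CPT2 (1.69) and CPT1B (1.12).

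In culture CPT1A stood near the bottom of the order. In BBOX1 cells SLC25A20 (4.79 RPKM) and CROT (4.12) overlapped, as did TMLHE (2.13) and SLC22A5 (1.81), and CPT2 (1.22) and CPT1A (1.06), with CPT1B (0.507) last. In empty-vector cells SLC25A20 (4.56 RPKM) and CROT (4.34) overlapped, as did TMLHE (1.99) and SLC22A5 (1.73), followed by CPT2 (1.29), CPT1A (0.835) and CPT1B (0.492). The place of CPT1B in the order of each group is uncertain, because of the exon bases it shares with CHKB-CPT1B. BBOX1 itself averaged 592 RPKM in BBOX1 xenografts, 0.245 in empty-vector xenografts, 447 in BBOX1 cells and 0 in empty-vector cells.

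**Figure D4:**
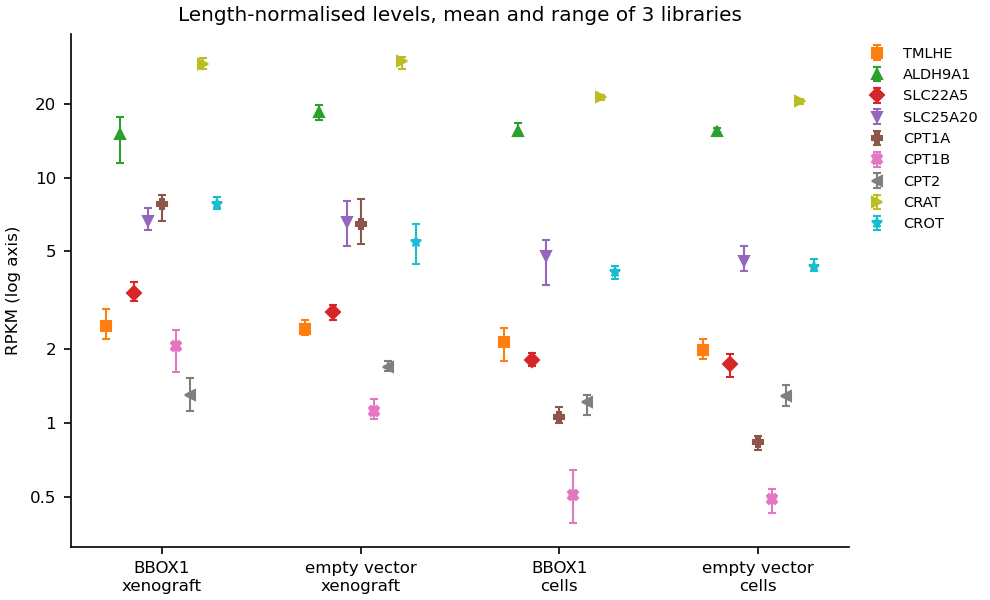
Mean level in RPKM (log axis) of the 9 genes in each group, with bars from the lowest to the highest of 3 libraries. CRAT and ALDH9A1 are at the top in all groups, while CPT1A is near SLC25A20 in xenografts and near CPT2 in cultured cells.

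Malonyl-CoA, the inhibitor of CPT1, is made by acetyl-CoA carboxylases and removed by malonyl-CoA decarboxylase. ACACA, the carboxylase of fatty acid synthesis, had 54.8, 36.2 and 42.6 CPM in BBOX1 xenografts, against 192, 193 and 183 CPM in BBOX1 cells, and fell by 1.99 on the log2 scale (SE 0.13, edgeR adjusted p = 4.34e-06). With empty vector ACACA had 44.4, 53.8 and 59.4 CPM in xenografts, against 198, 195 and 194 CPM in cells, and fell by 1.85 (SE 0.08, edgeR adjusted p = 1.72e-09). Xenografts and cells did not overlap for this gene.

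ACACB, the carboxylase at the mitochondrial surface, went the other way from ACACA. It averaged 14.1 CPM in BBOX1 xenografts against 6.12 CPM in BBOX1 cells, and 10.8 CPM in empty-vector xenografts against 7.94 CPM in empty-vector cells (log2 1.31 and 0.49, edgeR adjusted p = 0.000182 and 0.0184). The decarboxylase MLYCD rose by 0.69 on the log2 scale with BBOX1 and by 0.50 with empty vector (edgeR adjusted p = 0.00633 and 0.00133). With BBOX1 in culture 1 of the 3 genes passed in edgeR, which called 16.4% of all tested genes there, 7.86% lower. ACACB had 5.51, 6.74 and 6.13 CPM in BBOX1 cells, against 8.36, 7.92 and 7.55 CPM in empty-vector cells, and fell by 0.39 on the log2 scale (SE 0.13, edgeR adjusted p = 0.0383). In xenografts 0 of the 3 passed with BBOX1 in edgeR, and 0 had an unadjusted p under 0.05, against 5.54% and 25.2% of all tested genes.

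**Figure D5:**
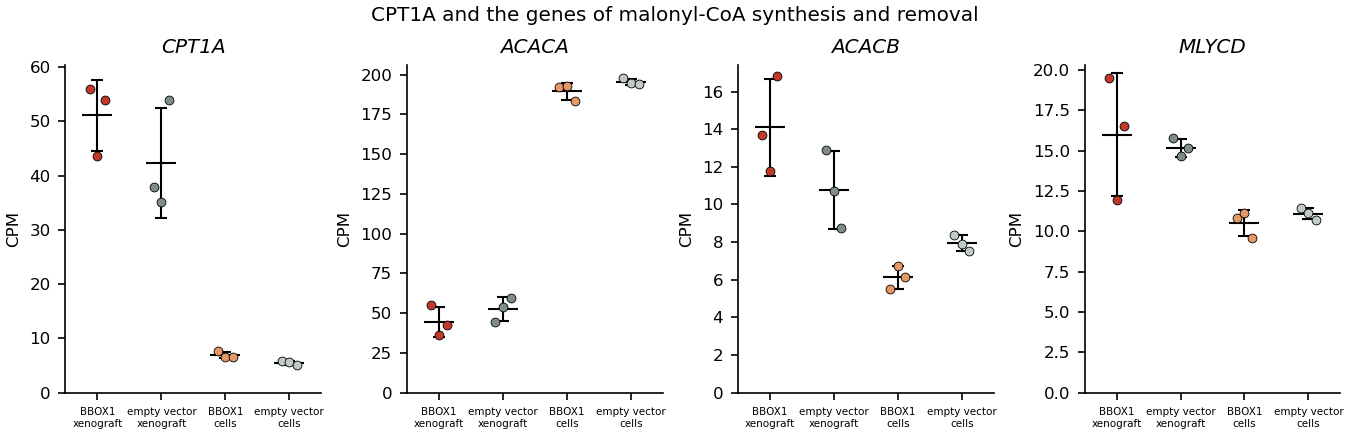
Level in CPM (axes from 0) of CPT1A, of the carboxylases ACACA and ACACB and of the decarboxylase MLYCD by group; points are libraries, and the bar is the mean ± SD of 3. CPT1A is higher and ACACA lower in all xenografts than in all cultured libraries.

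Of 7 further genes of carnitine transport and acyl transfer, 4 could be tested in culture, where 0 passed with BBOX1 in edgeR (1 at an unadjusted p under 0.05, against 28.1% of all genes), and 3 in xenografts, where 0 passed (1 at an unadjusted p under 0.05, against 25.2% of all genes). By growth setting 3 of 3 tested rose with BBOX1 and 3 of 4 with empty vector, where 36.1% and 35.5% of all tested genes rose. SLC25A29, a mitochondrial carrier first described for carnitine and acylcarnitine and known chiefly for basic amino acids, averaged 70.1 CPM in BBOX1 xenografts and 53.0 CPM in empty-vector xenografts, against 28.5 CPM in BBOX1 cells and 30.8 CPM in empty-vector cells. It rose by 1.40 on the log2 scale with BBOX1 and by 0.83 with empty vector (edgeR adjusted p = 1.38e-05 and 5.66e-06). Its BBOX1 effect was larger in xenografts than in culture by 0.56 (SE 0.15, edgeR adjusted p = 0.0482), close to the threshold. The effect was not called in xenografts (log2 0.45, edgeR adjusted p = 0.0737) or in culture (log2 -0.11, edgeR adjusted p = 0.352). Whether the call for the difference held without single libraries was not examined. SLC22A4, a transporter of ergothioneine related to SLC22A5, rose by 1.16 with BBOX1 and 0.91 with empty vector, and SLC25A45, a mitochondrial carrier, by 2.14 and 1.65.

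Markers of other cells were measured beside these results, and their part in them was not tested. The counts are of human genes on a human build, while host stroma, vessels, muscle and fat are mouse tissue. Low marker levels therefore do not show that little host tissue was present. Higher levels cannot be assigned to tumour cells or to mouse reads counted under human genes. The summed level of 5 fibroblast and pericyte markers was 66.1 to 97.3 CPM in BBOX1 xenografts and 112 to 151 CPM in empty-vector xenografts, against 2.65 to 3.16 CPM in BBOX1 cells and 2.38 to 3.80 CPM in empty-vector cells. COL3A1 made up most of it, at 80.2 and 115 CPM in BBOX1 and empty-vector xenografts, while DCN, a defining fibroblast gene, averaged 0.022 and 0 CPM there. LUM, a matrix proteoglycan, averaged 2.53 CPM in BBOX1 xenografts, against 21.3 CPM in empty-vector xenografts, and was called lower with BBOX1 (log2 -3.00, SE 0.43, edgeR adjusted p = 0.00372). LUM had 1.23 to 2.37 CPM in BBOX1 cells and 1.1 to 1.94 CPM in empty-vector cells. Endothelial markers (5) summed to at most 0.886 CPM in BBOX1 xenografts, 2.15 CPM in empty-vector xenografts, 0.221 CPM in BBOX1 cells and 1.40 CPM in empty-vector cells, with CDH5 at 0 in all groups. PECAM1 averaged 0.22, 1.00, 0.013 and 0.86 CPM in these groups, and TEK 0.36, 0.27, 0.11 and 0.14 CPM. PECAM1 alone could be tested in culture and was called lower with BBOX1 (log2 -5.21, edgeR adjusted p = 2.02e-05), where 7.86% of all tested genes were lower. In xenografts 0 of the 5 could be tested. Leukocyte markers (5) summed to at most 2.38, 3.65, 3.28 and 4.76 CPM in the same groups, with AIF1 at 0 in all, so that the highest sum was in culture. CSF1R made up most of these sums, at means of 1.75, 2.54, 2.46 and 3.12 CPM. Adipocyte markers (3) summed to at most 2.68 and 0.837 CPM, with ADIPOQ and LEP at 0, and erythroid markers (4) to at most 0.136 and 0.777 CPM in BBOX1 and empty-vector xenografts. The adipocyte sums were PLIN1 alone, at means of 1.55 and 0.60 CPM in BBOX1 and empty-vector xenografts (log2 1.44, edgeR adjusted p = 0.177, not called).

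Markers of the differentiated proximal tubule, the segment where BBOX1 is normally made, summed over 6 genes to 14.2 to 21.4 CPM in BBOX1 xenografts and 22.8 to 45.1 CPM in empty-vector xenografts, and to at most 1.49 CPM in BBOX1 cells and 1.83 CPM in empty-vector cells. Most of the sum was 1 gene, the endocytic receptor CUBN, which averaged 14.6 CPM in BBOX1 xenografts and 31.0 CPM in empty-vector xenografts and fell with BBOX1 by 1.04 on the log2 scale (SE 0.24, edgeR adjusted p = 0.0333). LRP2, its partner, averaged 1.87 CPM in BBOX1 xenografts and 1.88 CPM in empty-vector xenografts and was at 0 in culture. SLC34A1 averaged 0.35 and 0.18 CPM in BBOX1 and empty-vector xenografts, against 0.51 and 0.43 CPM in BBOX1 and empty-vector cells, and SLC22A6 was at 0 in all groups.

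Genes with a pattern most like those described were sought among 10708 protein-coding genes by distance, the root of the summed squared differences of centred log2 CPM over the 12 libraries. Nearest to CPT1A were DIRAS2 (distance 0.62), TSC22D1 (0.742) and CTSS (0.757). DIRAS2 averaged 78.6 CPM in BBOX1 xenografts, 66.1 in empty-vector xenografts, 9.84 in BBOX1 cells and 8.09 in empty-vector cells. Nearest to CPT1B were SLITRK2 (0.514), POLR2J3 (0.55) and RSRP1 (0.605). BBOX1 had no match as near: its nearest gene, FOXJ1, stood at a distance of 19.8. The other 7 genes spanned less than 1 on the log2 scale between group means and were not searched.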

How the data were processed

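Gene read counts of 12 libraries were deposited by the authors as raw whole numbers, not normalised. The build was hg38 and fastp, STAR, featureCounts and DESeq2 were used, per the submitters' processing notes, with versions and settings not given in the sources used here. Per the labels' protocols, the NEBNext Ultra libraries were sequenced as paired ends. All 58735 gene identifiers matched GENCODE 29, which gave positions and exon lengths. Groups and replicate numbers came from sample titles.

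Each comparison was fitted on the deposited counts with edgeR 4.0.16 in R 4.3.3 (quasi-likelihood F test, TMM, low-count filter with a minimum count of 10, Benjamini-Hochberg adjustment over all tested genes, threshold 0.05) on the groups compared, and the difference of effects on all 4 groups. Fits were tested on simulated data. The SE is the log2 fold change divided by the root of F, and intervals span 2 SE each side. A floor of 3 counts per group stood for 0 counts of BBOX1; floors and fits cover counting error and the spread of these libraries only. CPM used TMM over the 12 libraries, and RPKM divided CPM by exon length. Each fit used TMM over its own groups after the low-count filter. Fitted fold changes therefore differ somewhat from ratios of the printed CPM, and for small changes the sign can differ.

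All 10 genes are named; from each further list up to 3 genes of smallest p past the threshold are named per comparison, and for patterns the 3 nearest genes. The result of 1 further list is not reported here. Members and lists were chosen with earlier results of these data known. Alternatives were DESeq2 1.42.0, its size factors, no filter, a replicate block, a fit of all libraries and leaving out each library. Genes overlapping a member were counted apart, as deposited.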

Additional observations from a re-analysis of the deposited data

Results flagged for a closer look

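CROT, the peroxisomal carnitine octanoyltransferase, differed between settings in its BBOX1 effect by a test of the difference itself, at 0.64 on the log2 scale (SE 0.16, edgeR adjusted p = 0.0334). The BBOX1 effect was 0.57 in xenografts and -0.08 in culture. The call for the difference was lost in 8 of 12 fits that each left out 1 library (edgeR adjusted p up to 0.108). It was also lost with a replicate block. Beyond the fits without single libraries, CROT was not examined for outlying values within groups of 3 libraries.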

How the results depend on the processing

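By growth setting, leaving out 1 library gave 5 to 6 members higher with BBOX1 and 7 to 8 with empty vector. Over all genes it gave 5206 to 6289 higher and 4588 to 6158 lower with BBOX1. With empty vector it gave 5277 to 5725 higher and 4897 to 5483 lower. Some single calls were lost: BBOX1 itself and CROT with empty vector in 3 of 6 such fits each, and SLC25A20 with BBOX1 in 2 of 6. Between BBOX1 and empty vector in xenografts, the counts of all genes called higher and lower were 308 and 586, against 797 and 1408 with no filter, 731 and 1002 with DESeq2, 103 and 352 with a replicate block, and 1563 and 2105 with all 12 libraries in 1 fit. Leaving out 1 library gave 22 to 1854 higher and 153 to 2447 lower, with 0 to 2 members higher and 0 to 1 lower; the upper ends came without BBOX1 replicate 1, and without any other library the count higher was at most 115. For the difference of effects the counts were 326 and 552, against 570 and 1092 with no filter, 605 and 1088 with DESeq2, and 176 higher with the block; leaving out 1 library gave 63 to 1432 higher and 206 to 2750 lower, with 0 to 2 members higher and the upper ends again without BBOX1 xenograft replicate 1. In culture the fit of all 12 libraries called 1 gene higher and 1 lower. Under the block, 0 members were called in xenografts (CPT1B 0.92, edgeR adjusted p = 0.0971; CROT 0.58, 0.0858) and 0 in the difference (CROT 0.64, 0.0548). Same-numbered libraries did not deviate together (correlations of 0.02, 0.12 and -0.01 in cells and of -0.19, -0.24 and 0.04 in xenografts), so the numbers do not pair them.

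Uncalled values changed sign as follows. ALDH9A1 in culture was 0.0012 with the block and 0.00047 in the fit of all libraries, CRAT in xenografts -0.0175 with no filter, and ALDH9A1 in BBOX1 xenografts over culture -0.0884 with no filter. Leaving out 1 library, the ranges in culture were -0.0208 to 0.20 for TMLHE, -0.0561 to 0.0243 for ALDH9A1, -0.0222 to 0.13 for SLC22A5, -0.0259 to 0.22 for SLC25A20 and -0.16 to 0.16 for CPT1B. In xenografts they were -0.0086 to 0.16 for TMLHE, -0.0870 to 0.20 for SLC25A20 and -0.0343 to 0.0415 for CRAT, for ALDH9A1 by setting with BBOX1 -0.12 to 0.19, and for the difference -0.12 to 0.0937 for TMLHE, -0.18 to 0.13 for SLC25A20 and -0.16 to 0.16 for CPT1A. The cause was not tested.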

Other observations

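Genes that bring fatty acids to the carnitine shuttle moved in both directions with growth setting. Of 10 genes of fatty acid entry and activation, 8 had enough counts for a test, and 3 rose and 3 fell in xenografts over culture with BBOX1, and likewise with empty vector. Over all tested genes 36.1% rose and 32.1% fell with BBOX1, and 35.5% rose and 33.1% fell with empty vector, close to the shares in this list. ACSL3, an acyl-CoA synthetase of lipid droplets, averaged 38.1 CPM in BBOX1 xenografts against 189.6 CPM in BBOX1 cells, and 53.0 CPM in empty-vector xenografts against 187.5 CPM in empty-vector cells (log2 -2.22 and -1.78). SLC27A1, a fatty acid transport protein, rose by 1.30 and 1.03, and ACSL4, which favours arachidonate, fell by 0.99 with BBOX1 and by 0.64 with empty vector. CD36, the fatty acid translocase, averaged 2.42 CPM in BBOX1 xenografts against 0.0466 CPM in BBOX1 cells, and 2.40 CPM in empty-vector xenografts against 0.268 CPM in empty-vector cells, and was called higher in both. With BBOX1 against empty vector 0 of these genes were called by edgeR in either setting, with 5 of 8 at an unadjusted p under 0.05 in xenografts and 1 of 7 in culture, against 25.2% and 28.1% of all tested genes.

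Among 7 regulators of fatty acid oxidation, 6 had enough counts for a test by setting, of which 2 rose and 3 fell with BBOX1 and 3 rose and 3 fell with empty vector, where 68.2% and 68.6% of all tested genes were called in either direction. PPARD averaged 116 CPM in BBOX1 xenografts against 48.9 CPM in BBOX1 cells, and 151 CPM in empty-vector xenografts against 51.3 CPM in empty-vector cells. PPARG averaged 4.84 CPM in BBOX1 xenografts against 21.4 CPM in BBOX1 cells, and 7.79 CPM in empty-vector xenografts against 21.5 CPM in empty-vector cells. The coactivator PPARGC1B averaged 0.134 CPM in BBOX1 xenografts against 4.84 CPM in BBOX1 cells, and 0.673 CPM in empty-vector xenografts against 6.39 CPM in empty-vector cells. With BBOX1 against empty vector 0 were called by edgeR in either setting, with 3 of 5 at an unadjusted p under 0.05 in xenografts and 2 of 6 in culture, against the shares of all genes given above. Of the ascorbate transporters, SLC23A1 rose in xenografts over culture by 2.42 on the log2 scale with BBOX1 and by 3.23 with empty vector. In each, 1 of the 2 was called, against 68.2% and 68.6% of all tested genes. With BBOX1 against empty vector 0 of 2 were called by edgeR. At an unadjusted p under 0.05 there was 1 in xenografts and 0 in culture, against 25.2% and 28.1% of all tested genes.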
